A study of Mus musculus with 16 samples.

Results

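The RNA levels of 10 genes that encode chemokines and secreted inflammatory factors were followed through 16 libraries of a mouse muscle cell line. The genes were Cxcl10, Ccl5, Ccl2, Ccl7, Cxcl1, Cxcl5, Cxcl12, Cx3cl1, Il6 and Il18bp. They were listed by symbol, as 10 of the 24497 genes with deposited values. The choice used no measured value of these libraries as a threshold, but was made with earlier results of these data known. All 10 passed the filter on low counts, which left 14972 genes for testing.

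The libraries held poly(A) RNA of C2C12 cells, a line of mouse skeletal muscle myoblasts that fuse into myotubes when serum is withdrawn, labelled as C57BL/6. The labels cross a genotype (MYOD-/- or wild type), a stably transfected vector (one coding for the spliced form of the RNA MUNC, or the empty vector EV) and a state (differentiating cells at DM3, here DM, or proliferating cells, here GM). This gave 8 groups of 2 libraries from 4 lines, named below MYOD-/- MUNC, MYOD-/- EV, WT MUNC and WT EV. The MYOD-/- cells were made with CRISPR-Cas9 and screened as single cells before the vectors were added. The labels and design text name neither the deleted part of Myod1 nor the number of clones, so a line and its label cannot be told apart. Whether the 2 libraries of a group are separate cultures is not stated, and every p-value then reflects only how far these libraries differ, which may be technical.

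Chemokines are small secreted proteins that bind G protein-coupled receptors on leukocytes and steer their movement. They are grouped by the spacing of their first cysteines into CC, CXC and CX3C families, and by use into inflammatory members, which are switched on through NF-kB, interferons or both, and homeostatic members such as Cxcl12. In injured muscle they recruit monocytes and neutrophils, and myoblasts themselves release several of them. Il6 is a cytokine that muscle cells also release, and Il18bp is a secreted protein that captures interleukin-18.

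The bases upstream of 3 of the genes are shown because the genes differ in their pattern across the libraries. Cxcl10 and Il18bp were high in DM in 3 of the 4 lines, and Cxcl1 was highest in GM cells of the MYOD-/- lines. Each sequence is the 250 bases before the annotated start in RefSeq, on build GRCm38.p6, read 5′ to 3′ on the gene's strand. Capitals mark matches to the interferon-stimulated response element (GAAA, any 2 bases, GAAA) or to the NF-kB consensus, searched on both strands.
Cxcl10, chr5:92348890-92349139, minus strand: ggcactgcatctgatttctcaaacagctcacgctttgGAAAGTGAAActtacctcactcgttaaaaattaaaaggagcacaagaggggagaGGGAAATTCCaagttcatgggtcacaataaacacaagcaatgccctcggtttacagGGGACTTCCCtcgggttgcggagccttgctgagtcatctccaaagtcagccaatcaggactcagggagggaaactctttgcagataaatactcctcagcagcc
Il18bp, chr7:102018233-102018482, minus strand: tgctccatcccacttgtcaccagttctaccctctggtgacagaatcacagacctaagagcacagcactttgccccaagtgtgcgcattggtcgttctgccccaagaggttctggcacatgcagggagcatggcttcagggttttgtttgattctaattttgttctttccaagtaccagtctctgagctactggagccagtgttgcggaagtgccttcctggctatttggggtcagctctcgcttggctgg
Cxcl1, chr5:90890995-90891244, plus strand: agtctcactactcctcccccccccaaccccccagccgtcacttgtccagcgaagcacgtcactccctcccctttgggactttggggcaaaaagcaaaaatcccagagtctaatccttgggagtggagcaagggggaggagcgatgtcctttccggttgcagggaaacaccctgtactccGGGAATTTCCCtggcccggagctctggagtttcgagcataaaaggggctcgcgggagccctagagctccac

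The Cxcl10 window held 1 match to the interferon element, 213 to 204 bases before the start. It also held 2 matches to the NF-kB consensus, GGGAAATTCC at 159 to 150 bases and GGGACTTCCC at 103 to 94 bases before the start. In the Cxcl1 window, 2 overlapping NF-kB matches lay 71 to 61 bases before the start. GGGAATTTCC, at 71 to 62 bases, matched as printed, and GGAATTTCCC, at 70 to 61 bases, matched on the opposite strand. Il6, whose window is not printed, had 1 NF-kB match, GGGATTTTCC at 44 to 35 bases. The Il18bp, Cxcl12 and Cx3cl1 windows held neither set of letters. Among all 27025 promoter windows of this length, 3.04% held the interferon element and 3.75% the NF-kB consensus. The RefSeq table used here matched 6 of the 10 genes, and Ccl5, Ccl2, Ccl7 and Cxcl5 were not among them.

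Depth ran from 35.8 M to 107.7 M (M for mega) estimated counts per library, with a median of 61.2 M. Myod1 went against the genotype labels: it had 4.35 to 39.7 TPM (a level per length of RNA, relative to the library's total) in the 8 libraries labelled MYOD-/-, and 0.0149 to 4.10 TPM in the 8 labelled WT. The names MYOD-/- and WT are therefore used only as labels, and every direction between them follows the label. MUNC, counted as Gm45923 with vector and endogenous reads together, had 283 to 15600 TPM in MUNC libraries and 6.72 to 86.4 TPM in EV libraries. Of 12 leukocyte markers, 7 stayed under 1 CPM (counts relative to the TMM-scaled library size) in every library, among them Ptprc and Itgam, and the summed level of the 12 was 14.6 to 43.7 CPM. Of 7 endothelial markers, 5 stayed under 1 CPM in every library, with Tie1 and Emcn at 0 counts throughout. The 7 summed to 15.9 and 7.96 CPM in MYOD-/- MUNC DM and 9.28 and 4.33 in MYOD-/- EV DM, against 0.589 to 1.06 CPM in the WT-labelled DM libraries. In GM the sum was 1.10 to 7.58 CPM in the MYOD-/- label and 0.174 to 0.648 CPM in the WT label. Of the 4 tested, 2 were higher in the MYOD-/- label in MUNC DM and in MUNC GM, 1 in EV DM and in EV GM, and 0 were lower. The lines differed in their muscle markers. The summed level of 10 myoblast and myotube markers was 533 to 669 CPM in the MYOD-/- DM libraries, 228 and 202 CPM in WT MUNC DM, and 215 and 149 CPM in WT EV DM, against 116 to 207 CPM in the 8 GM libraries, with Pax7 under 1 CPM throughout. WT EV GM had 201 and 130 CPM, so that the states overlapped in that line. Myh3, the embryonic myosin heavy chain of new myotubes, had 314 and 260 CPM in MYOD-/- MUNC DM, 208 and 238 in MYOD-/- EV DM, 33.2 and 7.90 in WT MUNC DM, and 0.932 and 0.543 in WT EV DM. On differentiation 5 of the 9 tested markers rose in every line but WT EV, where 3 did, and the medians were 5.47 in MYOD-/- MUNC, 5.03 in MYOD-/- EV, 5.35 in WT MUNC and 1.65 in WT EV (log2, edgeR). The part of these differences in the DM results was not tested. In bulk RNA such as this, fewer cells of a type and less RNA per cell cannot be told apart.

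**Figure D1:**
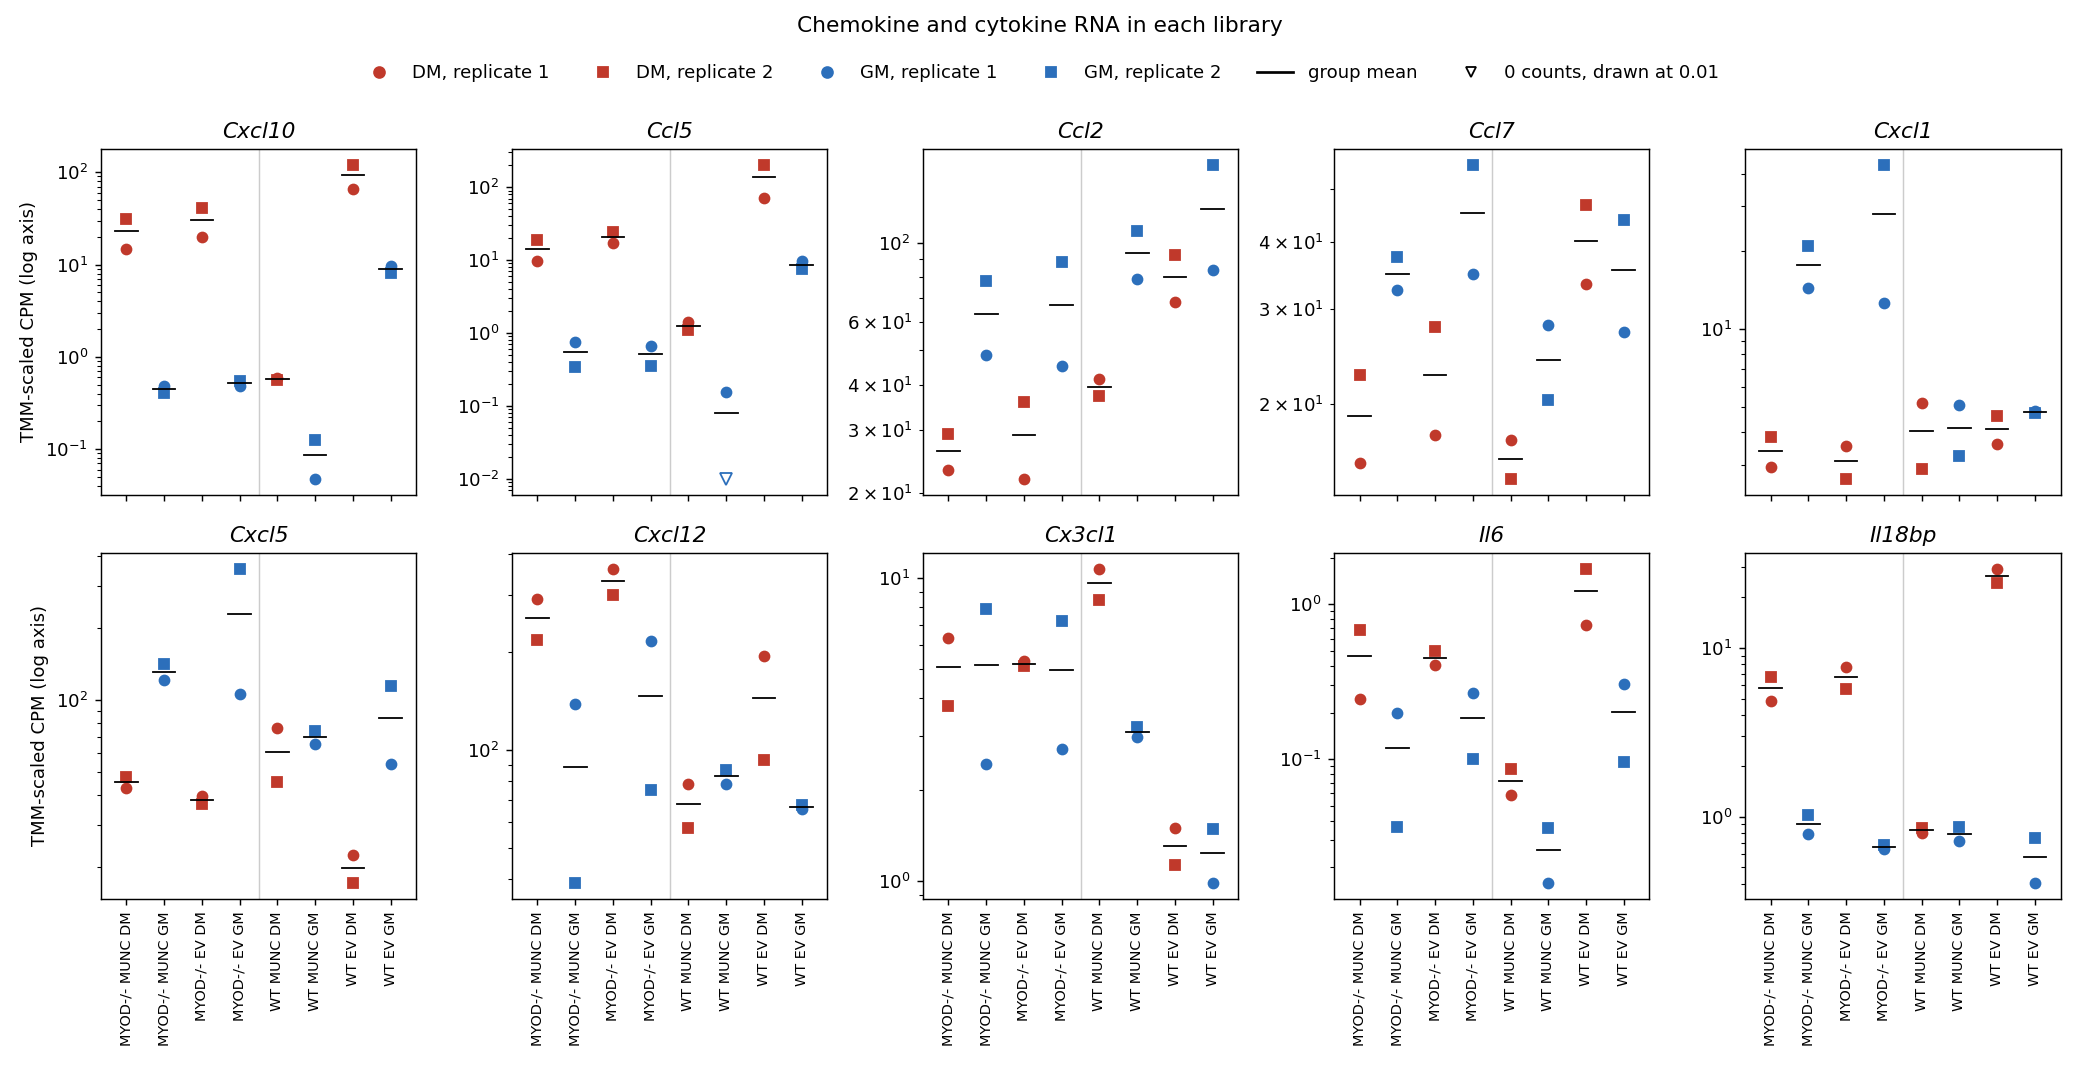
TMM-scaled CPM of the 10 genes in each of the 16 libraries, on a log axis whose range differs between panels, with replicate 1 as a circle, replicate 2 as a square and the group mean as a bar; DM is red and GM blue. Cxcl10, Ccl5 and Il18bp sit high in the DM libraries of all lines but WT MUNC, whose 2 DM libraries had 0.589 and 0.565 CPM of Cxcl10.

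Between genes, levels were compared in TPM. Ccl2 had the highest median over the 16 libraries, 182 TPM, followed by Cxcl12 with 76.9, Ccl7 with 73.4 and Cxcl5 with 73.3. Il6 had the lowest median, 0.444 TPM, and its highest library reached 3.29 TPM. Ccl5 had the widest range, 0 to 994 TPM. The 10 genes together made up 590 and 669 TPM in MYOD-/- MUNC DM, 747 and 780 in MYOD-/- EV DM, 410 and 283 in WT MUNC DM, and 1140 and 1780 in WT EV DM. Ccl2 and Cxcl12 supplied different shares of this sum by label and state. In the WT MUNC and WT EV GM libraries Ccl2 was 48.7% to 60.1% of the sum, while in the MYOD-/- DM libraries Cxcl12 led with 33.9% to 51.0%. In WT EV DM the leading gene was Ccl5, with 34.6% and 55.8%.

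**Figure D2:**
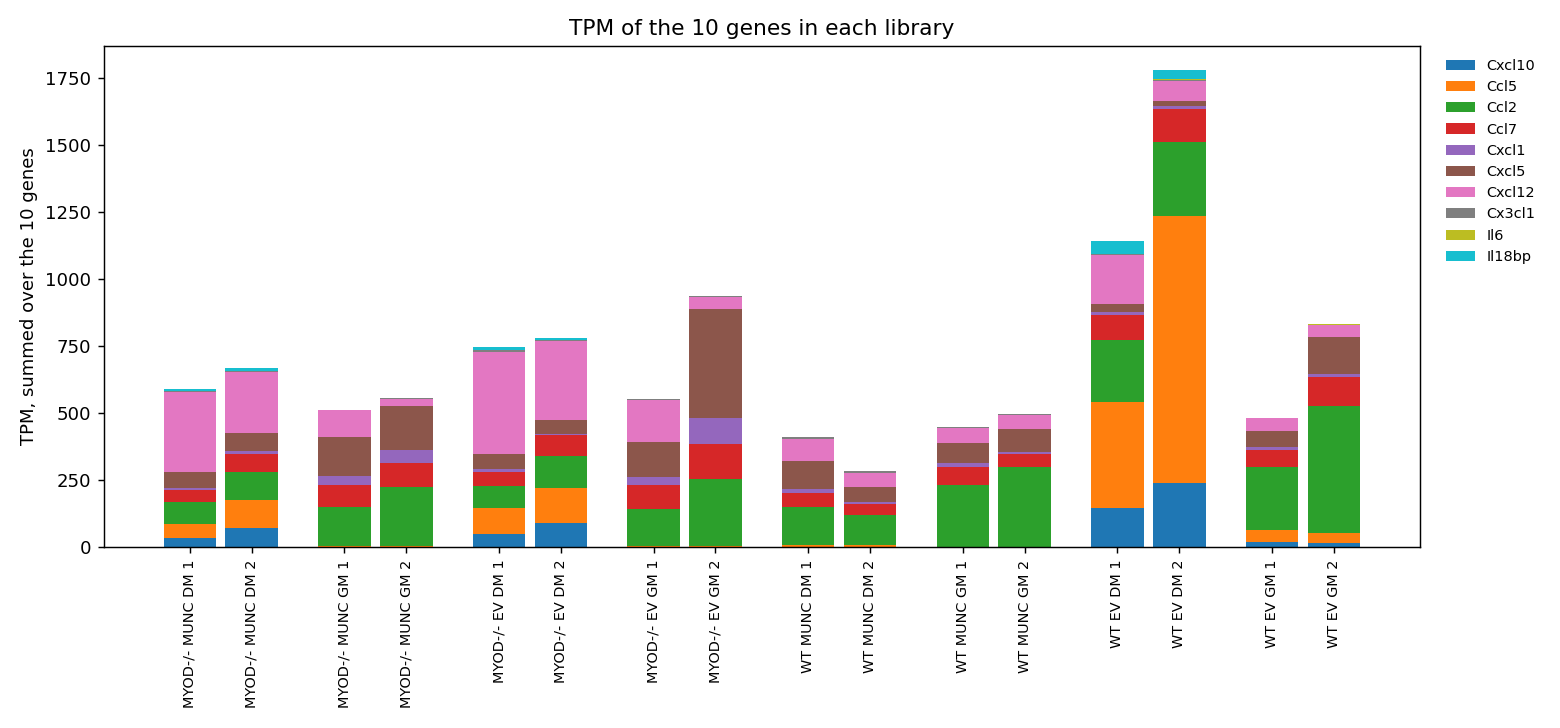
TPM of the 10 genes stacked in each library, in the order MYOD-/- MUNC, MYOD-/- EV, WT MUNC and WT EV, with DM left of GM. The tallest bars are the WT EV DM libraries at 1140 and 1780 TPM, most of whose height is Ccl5 (orange), Ccl2 (green) and Cxcl10 (blue); Cxcl12 (pink) is the largest block in the MYOD-/- DM bars.

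Differentiation was tested as DM minus GM within each line, with edgeR's quasi-likelihood test and Benjamini-Hochberg adjustment over all 14972 genes at a threshold of 0.05. The comparisons share groups with each other and are not independent. In MYOD-/- MUNC cells 4 of the 10 genes rose and 4 fell, where 44.8% of all genes were called, 24.4% higher and 20.4% lower. In MYOD-/- EV cells 3 rose and 4 fell (43.2% of all genes called, 23.5% higher and 19.7% lower). In WT MUNC cells 3 rose and 1 fell (39.8%, 20.5% higher and 19.2% lower), and in WT EV cells 4 rose and 1 fell (37.5%, 19.2% higher and 18.3% lower). The median log2 fold change of the 10 genes was 0.75, 0.62, 0.01 and 0.64 in these 4 lines in the same order, beside 0.05, 0.08, 0.06 and 0.02 for all genes tested. On the log2(TPM + 0.1) scale a median was taken over only the 10 genes and the gene lists used below, tested or not. It was 0.33, 0.32, 0.26 and 0.18, and cannot be set beside the medians of all genes. In limma on that scale 72.4%, 72.4%, 68.1% and 65.0% of the calls over all genes were higher in DM, against 54.4%, 54.4%, 51.6% and 51.2% in the counts.

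**Figure D3:**
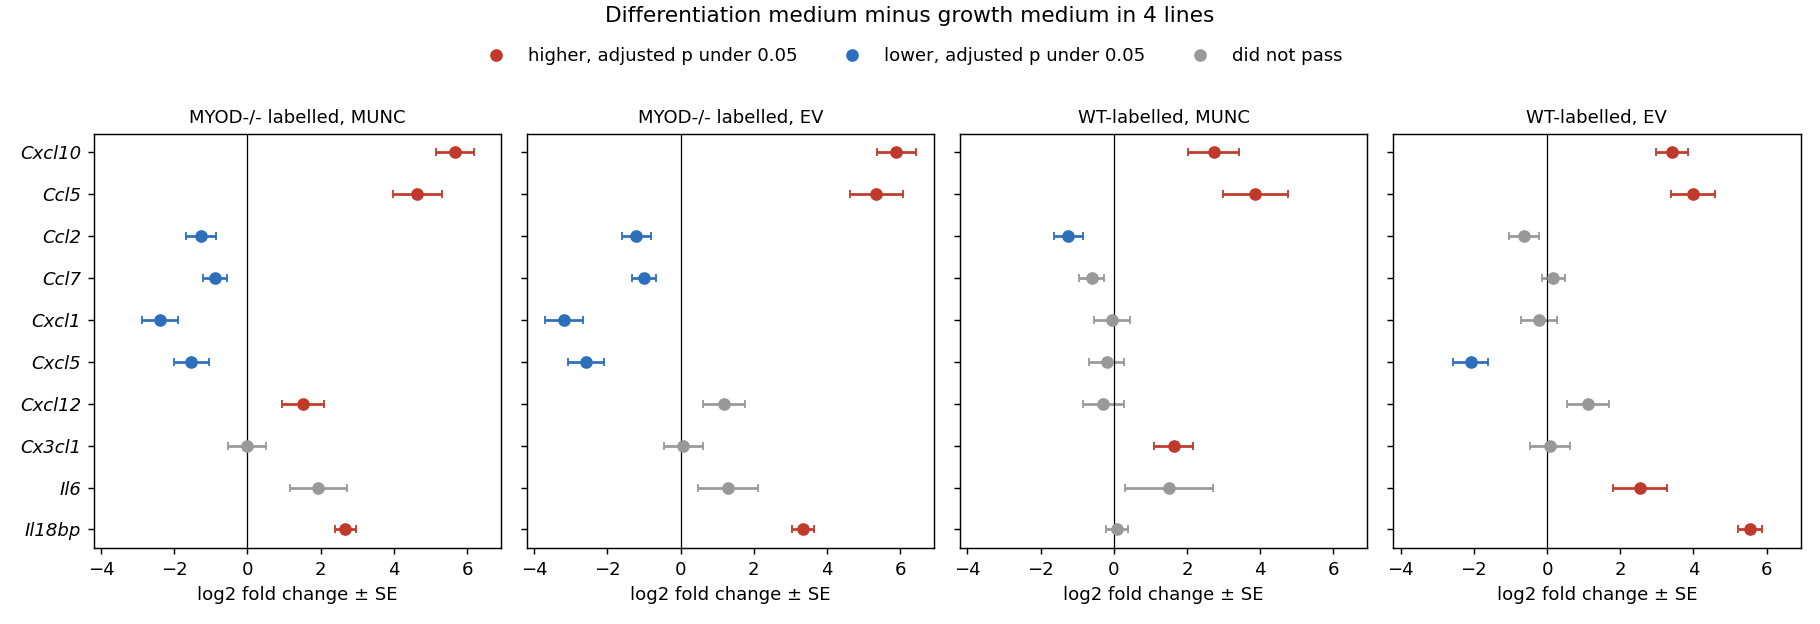
Log2 fold change of each gene, DM minus GM, in each of the 4 lines, with its SE as the bar. The SE is the absolute log2 fold change divided by the square root of the test's F statistic. Red and blue points passed the threshold of 0.05. Cxcl10 and Ccl5 are red in all 4 lines, Il18bp in all but WT MUNC, where it lies at 0.08, and Cxcl1 is blue in both MYOD-/- lines.

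Cxcl10, on mouse chromosome 5 at 92346638-92348889, encodes an interferon-inducible CXC ligand of the receptor Cxcr3, which draws activated T cells. It had 14.8 and 30.9 CPM in MYOD-/- MUNC DM cells, against 0.489 and 0.402 CPM in MYOD-/- MUNC GM cells. MYOD-/- EV cells had 20.1 and 41.3 CPM in DM, against 0.482 and 0.551 CPM in GM. Every DM library of these lines lay above every GM library. WT MUNC cells had 0.589 and 0.565 CPM in DM, against 0.0475 and 0.126 CPM in GM, the lowest group of each state. WT EV cells had 66.3 and 121 CPM in DM, against 9.54 and 8.16 CPM in GM, the highest values in either state. The log2 fold change on differentiation was 5.67 ± 0.52 (SE, adjusted p = 1.93e-05) in MYOD-/- MUNC, 5.89 ± 0.53 (adjusted p = 1.64e-05) in MYOD-/- EV and 3.41 ± 0.44 (adjusted p = 0.000154) in WT EV, from the edgeR fit. Each SE in this report was derived from the test, as the absolute log2 fold change divided by the square root of its F statistic. In WT MUNC the log2 fold change was 2.73 ± 0.70 (edgeR adjusted p = 0.00933), which rests on 30 and 59 estimated counts in DM and 3 and 7 in GM. That call was lost without WT MUNC GM replicate 1 (adjusted p = 0.083) and in limma on log2(TPM + 1) (adjusted p = 0.0593), and the value was 3.54 without WT MUNC GM replicate 2. Leaving out DM replicate 2 gave 5.0 in MYOD-/- MUNC and 5.27 in MYOD-/- EV. The rises in these 2 lines rest on 32 and 22 estimated counts in MYOD-/- MUNC GM and 18 and 22 in MYOD-/- EV GM. Cxcl10 lies within the span of Art3, which had 1 to 22 counts per library.

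Ccl5, on chromosome 11 at 83525778-83530518, encodes the CC ligand RANTES, which draws T cells and monocytes. Its order across the groups was close to that of Cxcl10. It had 9.59 and 18.6 CPM in MYOD-/- MUNC DM cells, against 0.764 and 0.347 CPM in MYOD-/- MUNC GM cells, and 17.0 and 24.6 CPM in MYOD-/- EV DM cells, against 0.669 and 0.351 CPM in MYOD-/- EV GM cells. WT EV cells had 71.6 and 204 CPM in DM, against 9.78 and 7.55 CPM in GM. In WT MUNC cells it had 1.43 and 1.10 CPM in DM, against 0.158 CPM and 0 counts in GM. DM and GM libraries did not overlap in any line, and the 2 WT EV DM libraries differed most. In the edgeR fit the log2 fold change was 4.64 ± 0.67 (adjusted p = 0.000308) in MYOD-/- MUNC, 5.35 ± 0.72 (adjusted p = 0.00018) in MYOD-/- EV, 3.87 ± 0.90 (adjusted p = 0.00555) in WT MUNC and 3.99 ± 0.61 (adjusted p = 0.000494) in WT EV. No library ended these calls. The WT MUNC value was 9.31 without GM replicate 1, which leaves the replicate at 0 counts, and 2.96 without GM replicate 2. The WT EV value was 3.05 without DM replicate 2, and that of MYOD-/- MUNC was 5.34 without GM replicate 1 and 4.04 without DM replicate 2. Ccl5 had 50 and 19 estimated counts in MYOD-/- MUNC GM and 25 and 14 in MYOD-/- EV GM.

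Il18bp, on chromosome 7 at 102015074-102018232, encodes a secreted decoy that is induced by interferon-gamma and holds interleukin-18 in check. It had 4.86 and 6.69 CPM in MYOD-/- MUNC DM cells, against 0.794 and 1.02 CPM in MYOD-/- MUNC GM cells. MYOD-/- EV cells had 7.69 and 5.74 CPM in DM, against 0.642 and 0.677 CPM in GM. In WT EV cells it reached 29.5 and 24.2 CPM in DM, against 0.404 and 0.744 CPM in GM. In WT MUNC cells the values overlapped, with 0.805 and 0.861 CPM in DM and 0.713 and 0.867 CPM in GM. The edgeR log2 fold change was 2.67 ± 0.29 (adjusted p = 5.2e-05) in MYOD-/- MUNC, 3.34 ± 0.31 (adjusted p = 1.91e-05) in MYOD-/- EV and 5.55 ± 0.33 (adjusted p = 1.34e-06) in WT EV, a 47.0-fold rise. It was 0.08 ± 0.30 (adjusted p = 0.854) in WT MUNC. The rise in WT EV rests on 25 and 39 estimated counts in GM. The difference of these differences was itself tested: the DM change in WT MUNC minus that in WT EV was -5.47 ± 0.43 (edgeR adjusted p = 0.000148).

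Il18, the cytokine that Il18bp binds, was at 7.91 and 6.16 CPM in MYOD-/- MUNC DM, 6.92 and 4.55 in MYOD-/- EV DM, 0.962 and 0.641 in WT MUNC DM, and 6.09 and 6.50 in WT EV DM. In GM all 8 libraries lay between 0.0913 and 1.34 CPM of Il18. Its edgeR log2 fold change was 3.27 ± 1.02 (adjusted p = 0.022) in MYOD-/- MUNC, 3.03 ± 1.04 (adjusted p = 0.0347) in MYOD-/- EV and 3.66 ± 1.05 (adjusted p = 0.0177) in WT EV. Il18rap, the accessory chain of the interleukin-18 receptor, fell in 3 lines. It had 0.368 and 0.806 CPM in MYOD-/- MUNC DM against 6.63 and 26.8 CPM in MYOD-/- MUNC GM, and its log2 fold change was -4.81 ± 0.62 in that line (edgeR adjusted p = 0.000145) and -4.0 ± 0.61 in MYOD-/- EV (adjusted p = 0.000432). It also fell in WT MUNC (-3.37 ± 0.58, adjusted p = 0.000959), where Il18bp was not called. In WT EV it had 2.30 and 3.18 CPM in DM, against 5.58 and 4.82 CPM in GM, and did not pass the threshold.

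The genes nearest in pattern to these members were found by the smallest root mean square difference of centred log2 CPM over the 8 group means. For Cxcl10 they were Ccl5 (0.546), Ifih1, a sensor of double-stranded RNA (0.674), and Oasl1 (0.769), on a range of 9.65 log2 units in Cxcl10. For Ccl5 they were Cxcl10, Samd9l (1.11) and Oasl1 (1.13), and for Il18bp Ifit1bl2 (0.243), F830016B08Rik (0.459) and BC147527 (0.485). Of the 11 tested transcription factors of the interferon response, 7 rose in MYOD-/- MUNC DM, 8 in MYOD-/- EV DM, 5 in WT MUNC DM and 9 in WT EV DM, and 0 fell in any line. Their median log2 fold change was 1.42, 1.5, 0.53 and 1.48 in that order. Irf7, which drives type I interferon genes, had 134 and 185 CPM in MYOD-/- MUNC DM and 186 and 180 CPM in MYOD-/- EV DM. In WT MUNC DM it had 2.16 and 1.68 CPM, and in WT EV DM 534 and 599 CPM. Of the 14 other chemokine ligands tested, 6 rose and 1 fell in MYOD-/- MUNC, 4 and 2 in MYOD-/- EV, 5 and 0 in WT MUNC, and 3 and 1 in WT EV, with medians of 1.52, 1.93, 1.68 and 0.34. Beside both lists, 24.4%, 23.5%, 20.5% and 19.2% of all genes tested rose in the same order of lines. The shares that fell were 20.4%, 19.7%, 19.2% and 18.3%. Ccl8, a monocyte ligand, rose in every line, by 3.23 ± 0.45, 3.09 ± 0.45, 2.48 ± 0.45 and 4.60 ± 0.49 on the log2 scale (edgeR adjusted p = 0.000222, 0.000299, 0.00143 and 4.31e-05). Cxcl9, another Cxcr3 ligand, also rose in every line, with log2 fold changes of 3.82 ± 0.54, 4.58 ± 0.60, 1.81 ± 0.62 and 4.19 ± 0.56 in that order (edgeR adjusted p = 0.00025, 0.00016, 0.0376 and 0.000205).

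Ccl2 and Ccl7 are neighbours on chromosome 11 (82035577-82037452 and 82045712-82047525) and encode the CC ligands MCP-1 and MCP-3, which draw monocytes through Ccr2. Ccl2 had 23.2 and 29.3 CPM in MYOD-/- MUNC DM, against 48.5 and 78.1 CPM in MYOD-/- MUNC GM, and 21.9 and 36 CPM in MYOD-/- EV DM, against 45.3 and 88.4 CPM in MYOD-/- EV GM. WT MUNC cells had 41.7 and 37.4 CPM in DM, against 79.0 and 108 CPM in GM. WT EV cells had 68.1 and 92.3 CPM in DM, against 83.6 and 165 CPM in GM, and here the libraries overlapped. Ccl2 fell in the first 3 lines, with edgeR log2 fold changes of -1.27 ± 0.40 (adjusted p = 0.0238), -1.21 ± 0.40 (adjusted p = 0.0312) and -1.24 ± 0.40 (adjusted p = 0.0296), and in WT EV it was -0.63 ± 0.40 (adjusted p = 0.236). These 3 calls did not hold without single libraries. MYOD-/- MUNC lost its call without DM replicate 1 (adjusted p = 0.127), DM replicate 2 (0.0604) or GM replicate 2 (0.145). MYOD-/- EV lost it without DM replicate 1 (0.175) or GM replicate 2 (0.241), and with only the groups compared in the fit (0.0507). WT MUNC lost it without DM replicate 1 (0.0984), DM replicate 2 (0.132) or GM replicate 2 (0.143). On the log2(TPM + 1) scale limma gave adjusted p = 0.0556 in MYOD-/- MUNC and 0.0663 in MYOD-/- EV.

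Ccl7 had 15.5 and 22.6 CPM in MYOD-/- MUNC DM, against 32.5 and 37.4 CPM in MYOD-/- MUNC GM, and 17.5 and 27.8 CPM in MYOD-/- EV DM, against 34.9 and 55.6 CPM in MYOD-/- EV GM. The values were 17.1 and 14.5 CPM in WT MUNC DM, against 28.0 and 20.3 CPM in WT MUNC GM, and 33.4 and 46.8 CPM in WT EV DM, against 27.2 and 43.8 CPM in WT EV GM. DM libraries lay below GM libraries in 3 lines and overlapped them in WT EV. Ccl7 fell in MYOD-/- MUNC (edgeR log2 fold change -0.88 ± 0.33, adjusted p = 0.0478) and in MYOD-/- EV (-1.0 ± 0.33, adjusted p = 0.029). The MYOD-/- MUNC call was lost in 7 of the 16 fits without 1 library: DM replicate 1, both GM replicates and all 4 WT MUNC libraries, with adjusted p of 0.0501 to 0.233. The MYOD-/- EV call was lost without DM replicate 1 (0.168) or GM replicate 2 (0.182), and limma on log2(TPM + 1) gave 0.124 and 0.0723 for the 2 lines. The TPM ratio of Ccl2 to Ccl7 was 1.48 to 2.46 (median 1.65) in the 8 libraries labelled MYOD-/- and 2.32 to 6.25 (median 3.18) in the 8 labelled WT.

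Cxcl1 and Cxcl5, on chromosome 5 at 90891245-90893121 and 90759298-90761625, encode CXC ligands that draw neutrophils through Cxcr2. Cxcl1 had 2.93 and 3.83 CPM in MYOD-/- MUNC DM, against 14.5 and 20.9 CPM in MYOD-/- MUNC GM, and 3.55 and 2.64 CPM in MYOD-/- EV DM, against 12.6 and 43.3 CPM in MYOD-/- EV GM. The 2 groups of MYOD-/- GM libraries were the high ones. In WT-labelled cells it had 5.18 and 2.89 CPM in WT MUNC DM, against 5.10 and 3.23 CPM in WT MUNC GM, and 3.60 and 4.63 CPM in WT EV DM, against 4.85 and 4.77 CPM in WT EV GM. Cxcl1 fell by 2.39 ± 0.50 on the log2 scale in MYOD-/- MUNC (edgeR adjusted p = 0.00291) and by 3.18 ± 0.52 in MYOD-/- EV (adjusted p = 0.000656). In WT MUNC the value was -0.06 ± 0.49 and in WT EV -0.23 ± 0.49. No library ended the 2 calls, though the MYOD-/- EV value was -2.10 without GM replicate 2 and -3.86 without GM replicate 1. The DM change in MYOD-/- EV minus that in WT EV was -2.95 ± 0.70, with an edgeR adjusted p of 0.0522, which did not pass. DESeq2 gave 0.000668, edgeR with DESeq2's size factors 0.0491, and edgeR with replicate number as a block 0.0382.

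Cxcl5 had 43.0 and 47.9 CPM in MYOD-/- MUNC DM, against 121 and 141 CPM in MYOD-/- MUNC GM, and 39.8 and 36.8 CPM in MYOD-/- EV DM, against 106 and 354 CPM in MYOD-/- EV GM. WT MUNC cells had 76.6 and 45.3 CPM in DM, against 65.4 and 74.4 CPM in GM, and WT EV cells 22.6 and 17.2 CPM in DM, against 53.9 and 115 CPM in GM. DM lay below GM in every line but WT MUNC, whose libraries overlapped. The edgeR log2 fold change was -1.53 ± 0.48 (adjusted p = 0.0239) in MYOD-/- MUNC, -2.59 ± 0.50 (adjusted p = 0.00179) in MYOD-/- EV, -0.20 ± 0.47 (adjusted p = 0.777) in WT MUNC and -2.09 ± 0.49 (adjusted p = 0.00667) in WT EV. The MYOD-/- MUNC call was lost without DM replicate 1 (0.111), DM replicate 2 (0.0833) or GM replicate 2 (0.0759), and on log2(TPM + 1) in limma (0.059). The WT EV call was lost without DM replicate 2 (0.0527) or GM replicate 2 (0.0662, with a value of -1.44). The MYOD-/- EV value was -1.54 without GM replicate 2 and -3.27 without GM replicate 1. Ppbp, another ligand of Cxcr2, fell in MYOD-/- EV (-1.72 ± 0.32, edgeR adjusted p = 0.00133), in WT EV (-1.56 ± 0.32, adjusted p = 0.00281) and, just past the threshold, in MYOD-/- MUNC (-0.81 ± 0.31, adjusted p of 0.05 after rounding). In WT MUNC it had 2.51 and 2.11 CPM in DM, against 1.98 and 2.24 CPM in GM.

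Of the 22 tested genes of the NF-kB pathway and its targets, 3 rose and 4 fell in MYOD-/- MUNC, 5 and 3 in MYOD-/- EV, 4 and 3 in WT MUNC, and 6 and 1 in WT EV, with medians of -0.08, -0.05, 0.26 and 0.02. Of all genes tested, 24.4%, 23.5%, 20.5% and 19.2% rose in these lines, and 20.4%, 19.7%, 19.2% and 18.3% fell. The counts are therefore not read as a change of the list as a whole. Ikbke, a kinase that joins NF-kB and interferon signalling, rose in all 4 lines, by 1.53 ± 0.24, 1.87 ± 0.25, 1.49 ± 0.24 and 1.74 ± 0.24 on the log2 scale (edgeR adjusted p = 0.000499, 0.00016, 0.000709 and 0.000239). Nfkbiz, a co-activator that Il6 needs in mouse macrophages, fell by 1.07 ± 0.33 in MYOD-/- MUNC (adjusted p = 0.0218) and by 0.89 ± 0.34 in MYOD-/- EV (adjusted p = 0.0499). In both lines another gene of the list fell by more.

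Cxcl12, on chromosome 6 at 117168535-117181368, encodes the homeostatic ligand SDF-1 of Cxcr4 and of the scavenging receptor Ackr3. It had 292 and 218 CPM in MYOD-/- MUNC DM, against 138 and 38.9 CPM in MYOD-/- MUNC GM, and 361 and 299 CPM in MYOD-/- EV DM, against 216 and 75.3 CPM in MYOD-/- EV GM. In WT MUNC the values were 78.3 and 57.6 CPM in DM, against 78.7 and 87.0 CPM in GM, and in WT EV 195 and 93.2 CPM in DM, against 65.6 and 67.7 CPM in GM. The 4 MYOD-/- DM libraries were the highest of the 16, and the 2 replicates of each MYOD-/- GM group stood further apart than those of the MYOD-/- DM groups. Cxcl12 rose in MYOD-/- MUNC only just past the threshold (edgeR log2 fold change 1.52 ± 0.57, adjusted p = 0.0495), and was 1.18 ± 0.57 (0.116) in MYOD-/- EV, -0.29 ± 0.56 (0.724) in WT MUNC and 1.11 ± 0.57 (0.148) in WT EV. The MYOD-/- MUNC call was lost in 13 of the 16 fits without 1 library, all but those without MYOD-/- MUNC GM replicate 1 or either MYOD-/- EV GM replicate, with adjusted p of 0.052 to 0.268. It was also lost with DESeq2's size factors (0.0538), under a filter of 5 CPM (0.0513) and in a fit of the groups compared alone (0.11). The value was 0.85 without GM replicate 2 and 2.72 without GM replicate 1. In limma on log2(TPM + 1) Cxcl12 in MYOD-/- EV was 1.98 (adjusted p = 0.0342).

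The authors' run quantified 3 transcripts of Cxcl12, of 1878, 3173 and 5670 bases. The longest took 1.47% to 2.39% of the gene's TPM in the 8 DM libraries, against 5.71% to 18.9% in the 8 GM libraries, with no overlap. The shortest took 60.1% to 77.0% in DM libraries, against 43.5% to 60.8% in GM libraries, which overlapped. The 3173-base transcript took 20.9% to 37.9% in DM and 33.5% to 39.2% in GM libraries. These shares depend on how reads common to the transcripts were divided, and were not tested. Of the receptors, Cxcr4 had 9.53 and 5.47 CPM in MYOD-/- MUNC DM, 6.08 and 3.92 in MYOD-/- EV DM, 5.83 and 5.63 in WT MUNC DM, and 0.164 and 0.217 in WT EV DM. Cxcr4 rose in WT MUNC (edgeR log2 fold change 1.67 ± 0.40, adjusted p = 0.00662) and fell in WT EV (-2.01 ± 0.47, adjusted p = 0.00598). Ackr3 fell in WT EV (-1.81 ± 0.50, adjusted p = 0.0141), where it had 7.0 and 7.61 CPM in DM, against 28.7 and 22.7 CPM in GM. The summed level of 8 fibroblast-like markers, of which Dcn and Lum were among the genes that rose, was 5850 to 13300 CPM in the 8 DM libraries, against 781 to 5020 CPM in the 8 GM libraries, and its part in the Cxcl12 levels was not tested. Of these 8 markers, Thy1 was under 1 CPM throughout.

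Cx3cl1, on chromosome 8 at 94772180-94782427, encodes the membrane-anchored chemokine fractalkine, which is shed by Adam10 and Adam17 and binds Cx3cr1. It had 6.35 and 3.78 CPM in MYOD-/- MUNC DM, against 2.43 and 7.87 CPM in MYOD-/- MUNC GM, and 5.31 and 5.10 CPM in MYOD-/- EV DM, against 2.73 and 7.19 CPM in MYOD-/- EV GM. WT MUNC cells had 10.7 and 8.42 CPM in DM, against 2.98 and 3.21 CPM in GM, and WT EV cells 1.5 and 1.13 CPM in DM, against 0.986 and 1.49 CPM in GM. Only the WT MUNC states did not overlap, and the 4 WT EV libraries were the lowest of the 16. Cx3cl1 rose in WT MUNC by 1.63 ± 0.54 on the log2 scale (edgeR adjusted p = 0.0316), and this call was lost on leaving out any 1 of the 4 WT MUNC libraries, with an adjusted p of 0.132 or 0.0623 without DM replicate 1 or 2 and of 0.126 or 0.11 without GM replicate 1 or 2.

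Il6, on chromosome 5 at 30013114-30019975, encodes interleukin-6, which signals through Il6ra and Il6st. It was scarce, with 0.245 and 0.687 CPM in MYOD-/- MUNC DM, against 0.199 and 0.0365 CPM in MYOD-/- MUNC GM, and 0.403 and 0.499 CPM in MYOD-/- EV DM, against 0.268 and 0.1 CPM in MYOD-/- EV GM. WT MUNC cells had 0.0589 and 0.0861 CPM in DM, against 0.0158 and 0.0361 CPM in GM, and WT EV cells 0.735 and 1.70 CPM in DM, against 0.307 and 0.0954 CPM in GM. DM lay above GM in every line, and the WT MUNC libraries were the lowest in DM. In WT EV the log2 fold change was 2.55 ± 0.74 (edgeR adjusted p = 0.0193). That call was lost without WT EV DM replicate 2 (0.118, with a value of 1.84) or GM replicate 2 (0.137), and the value was 3.64 without GM replicate 1. It was 1.94 ± 0.79 (0.0668) in MYOD-/- MUNC, 1.3 ± 0.82 (0.223) in MYOD-/- EV and 1.5 ± 1.20 (0.353) in WT MUNC. On log2(TPM + 0.1) the MYOD-/- MUNC value passed in limma (0.0309).

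The MUNC vector was compared with the empty vector within each label and state. In the MYOD-/- label 0 of the 10 genes were called in DM and 0 in GM, where 0.0% of all genes passed in edgeR. At an unadjusted p under 0.05, 152 of the 14972 genes in DM and 191 in GM were counted, with 0 of the 10 among them. Both counts are below the share of 0.05 that evenly spread p-values would give. The absence of calls therefore does not show an absence of difference. DESeq2 called 4 genes in DM and 0 in GM, and limma on log2(TPM + 1) called 7 and 3. In this label MUNC had reached 283 to 750 TPM, against a highest value of 15600 TPM in the WT label. The log2 fold changes of the 10 genes ran from -0.56 ± 0.54 (Ccl5) to 0.25 ± 0.48 (Cxcl5) in DM, and from -0.81 ± 0.48 (Cxcl5) to 0.46 ± 0.31 (Il18bp) in GM. In the WT label 2 genes were higher and 5 lower in MUNC than in EV cells in DM (33.3% of all genes called, 15.6% higher and 17.7% lower), and 0 were higher and 2 lower in GM (13.8% called, 6.04% higher and 7.71% lower). The median of the 10 was -1.21 in DM and -0.34 in GM, beside 0.00 and -0.03 for all genes. WT MUNC and WT EV are separate transfected lines, so that the vector and the line cannot be told apart.

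**Figure D4:**
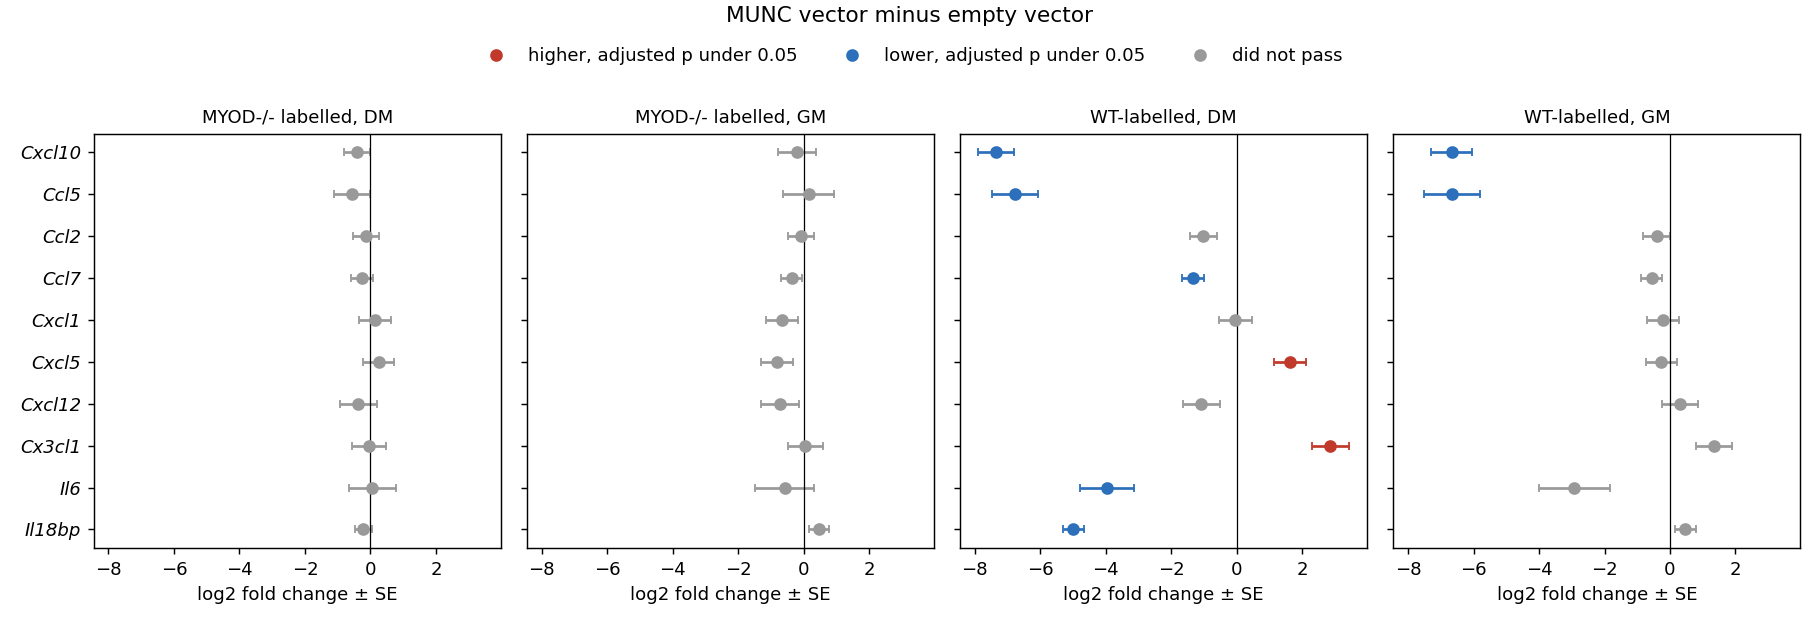
Log2 fold change of each gene, MUNC minus EV, with its SE, in DM and GM cells of the MYOD-/- label (left) and of the WT label (right); coloured points passed the threshold of 0.05. No point is coloured on the left, while Cxcl10 and Ccl5 lie between -6.66 and -7.35 in the WT-labelled cells.

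In WT-labelled DM cells Cxcl10 was 163-fold lower in MUNC than in EV cells (log2 fold change -7.35 ± 0.54, edgeR adjusted p = 3.39e-06), Ccl5 110-fold lower (-6.78 ± 0.71, adjusted p = 4.01e-05) and Il18bp 32.1-fold lower (-5.0 ± 0.32, adjusted p = 1.44e-06). Both MUNC libraries lay below both EV libraries for each of these genes. Il6 was also lower (-3.97 ± 0.82, adjusted p = 0.00353), from 3 and 9 counts in WT MUNC DM, all of them on the 1083-base transcript, against 67 and 125 counts in WT EV DM, nearly all on the 1141-base one. Ccl7 was lower (-1.34 ± 0.33, adjusted p = 0.00933). Higher in MUNC cells were Cx3cl1 (2.86 ± 0.56, adjusted p = 0.00267) and Cxcl5 (1.62 ± 0.49, adjusted p = 0.0252). Ccl2 was -1.02 ± 0.40 and missed the threshold (adjusted p = 0.0708), while DESeq2 gave 0.0294 and edgeR with replicate number as a block 0.00573. The Ccl7 call was lost without WT EV DM replicate 2 (0.0708) or WT MUNC DM replicate 2 (0.0754), and the Cxcl5 call without either WT EV DM replicate (0.0674 and 0.149) or WT MUNC DM replicate 1 (0.164). Without WT EV DM replicate 2 the Ccl5 value was -5.84 and that of Il6 was -3.26. Muscle markers moved in the same comparison: 5 of the 9 tested were higher and 0 lower in WT MUNC DM (median 3.07), among them Myh3 (4.78 ± 0.58, adjusted p = 0.000126), the fusion factor Mymk (4.93 ± 0.66, adjusted p = 0.000331), the muscle creatine kinase Ckm (3.98 ± 0.83, adjusted p = 0.00363) and Myod1 (4.83 ± 0.76, adjusted p = 0.000669). Of 7 tested fibroblast-like markers 1 was higher and 1 lower. The part of these markers in the differences was not tested.

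In WT-labelled GM cells Cxcl10 was 102-fold lower in MUNC than in EV cells (-6.67 ± 0.62, edgeR adjusted p = 5.41e-05) and Ccl5 101-fold lower (-6.66 ± 0.85, adjusted p = 0.000437). Both folds rest on few counts in WT MUNC GM, 3 and 7 for Cxcl10 and 10 and 0 for Ccl5. Leaving out WT MUNC GM replicate 2 gave -7.48 for Cxcl10 and -5.75 for Ccl5, and leaving out replicate 1 gave -12.09 for Ccl5. Il18bp was 0.47 ± 0.31 (adjusted p = 0.37) and Il6 -2.92 ± 1.09 (adjusted p = 0.107). Of the muscle markers 1 of 9 was higher in WT MUNC GM, Myod1 (4.56 ± 0.73, adjusted p = 0.00192), and 0 were lower, with a median of -0.04. Of 7 leukocyte markers 2 were lower and 0 higher there. Among the interferon factors 6 of 11 were lower and 0 higher in WT MUNC DM (median -1.53), with Irf7 at -8.21 ± 0.48 (adjusted p = 9.45e-07). In GM 2 were lower and 0 higher, and their median was -0.25. Of the 19 other secreted factors tested, 10 were lower and 2 higher in DM. They included Tnfsf10, the death ligand TRAIL (-4.33 ± 0.45, adjusted p = 3.87e-05), and the pattern-recognition protein Ptx3, which was higher (7.86 ± 0.96, adjusted p = 0.000127).

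Of the 14 other chemokine ligands, 3 were higher and 6 lower in WT MUNC DM than in WT EV DM, with a median of -0.63. Of all genes tested, 15.6% were higher and 17.7% lower in this comparison. Cxcl9 was lower (-3.24 ± 0.51, edgeR adjusted p = 0.0007), as was the monocyte ligand Ccl8 (-1.71 ± 0.42, adjusted p = 0.00873), and Ppbp was higher (1.95 ± 0.32, adjusted p = 0.000819). Of the 21 receptors tested, 7 were higher and 2 lower. Ccrl2, an atypical receptor that holds the chemoattractant chemerin, had 0.137 and 0.0383 CPM in WT MUNC DM, against 10.6 and 19.9 CPM in WT EV DM (-7.61 ± 0.72, adjusted p = 2e-05). Cxcr4 was higher in MUNC cells (4.90 ± 0.48, adjusted p = 2.6e-05). Ackr4, an atypical receptor that removes CC chemokines, had 6.56 and 5.18 CPM in WT MUNC DM, against 0.154 and 0.0814 CPM in WT EV DM (5.59 ± 0.79, adjusted p = 0.000327). For chemokine processing and presentation, 4 of 11 genes were higher and 1 lower, the lower one being Sdc3, a heparan sulphate proteoglycan (-3.28 ± 0.60, adjusted p = 0.00171). Of the 12 leukocyte markers, 7 were tested, with 3 lower and 0 higher in WT MUNC DM. The summed level of the 12 was 15.4 and 16.1 CPM there, against 23.5 and 26.5 CPM in WT EV DM, and its part in these differences was not tested.

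Whether MUNC differences differed between the labels was tested as the MUNC difference in MYOD-/- cells minus that in WT-labelled cells. In DM 4 of the 10 genes had a higher and 1 a lower difference in the MYOD-/- label, where 18.1% of all genes passed, 10.1% higher and 8.01% lower. These were Cxcl10 (6.92 ± 0.64, edgeR adjusted p = 4.21e-05), Ccl5 (6.22 ± 0.84, adjusted p = 0.000557), Il18bp (4.79 ± 0.40, adjusted p = 2.02e-05), Il6 (4.03 ± 1.08, adjusted p = 0.025) and Cx3cl1 (-2.90 ± 0.76, adjusted p = 0.0223). Among the 9 tested muscle markers the same difference was lower for 5 and higher for 0 in DM (median -2.68), and among 7 leukocyte markers it was higher for 3 and lower for 0. In GM, where 4.93% of all genes passed (2.76% higher and 2.17% lower), 2 were called, Cxcl10 (6.46 ± 0.87, adjusted p = 0.0015) and Ccl5 (6.82 ± 1.17, adjusted p = 0.00672). The Il6 call was lost without any 1 of 6 libraries, both replicates of MYOD-/- EV DM and of WT MUNC DM and replicate 2 of MYOD-/- MUNC DM and of WT EV DM, with adjusted p of 0.0742 to 0.124. The Cx3cl1 call was lost without any 1 of 5 libraries, both replicates of MYOD-/- EV DM, replicate 2 of MYOD-/- MUNC DM and of WT EV DM and replicate 1 of WT MUNC DM, with adjusted p of 0.0589 to 0.0974. In a fit of the groups compared alone the Ccl5 difference in GM did not pass (0.0753). Without WT MUNC GM replicate 1 it was 12.25 and without replicate 2 5.90, while Cxcl10 in GM was 7.27 without replicate 2 of that group. Without MYOD-/- MUNC GM replicate 1 the Ccl5 difference in GM was 6.11. In DM Cxcl10 was 7.54 without MYOD-/- EV DM replicate 2 and 6.32 without MYOD-/- MUNC DM replicate 2, and Ccl5 was 6.82 and 5.29 without WT EV DM replicate 1 and 2.

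The genotype labels were compared as MYOD-/- minus WT within each vector and state. In MUNC cells 5 of the 10 genes were higher and 0 lower in the MYOD-/- label in DM (22.7% of all genes called, 12.8% higher and 9.89% lower), and 1 was higher and 0 lower in GM (9.99%, 4.98% higher and 5.02% lower). In EV cells 1 was higher and 4 lower in DM (31.4%, 15.3% higher and 16.1% lower), and 2 were higher and 2 lower in GM (10.4%, 4.58% higher and 5.77% lower). The median log2 fold change of the 10 was 1.09 and 0.82 in MUNC DM and GM, and -1.12 and 0.28 in EV DM and GM, beside 0.01, 0.02, -0.02 and -0.04 for all genes. In EV DM 59.2% of all calls were higher by limma on log2(TPM + 1), against 48.7% in the counts.

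**Figure D5:**
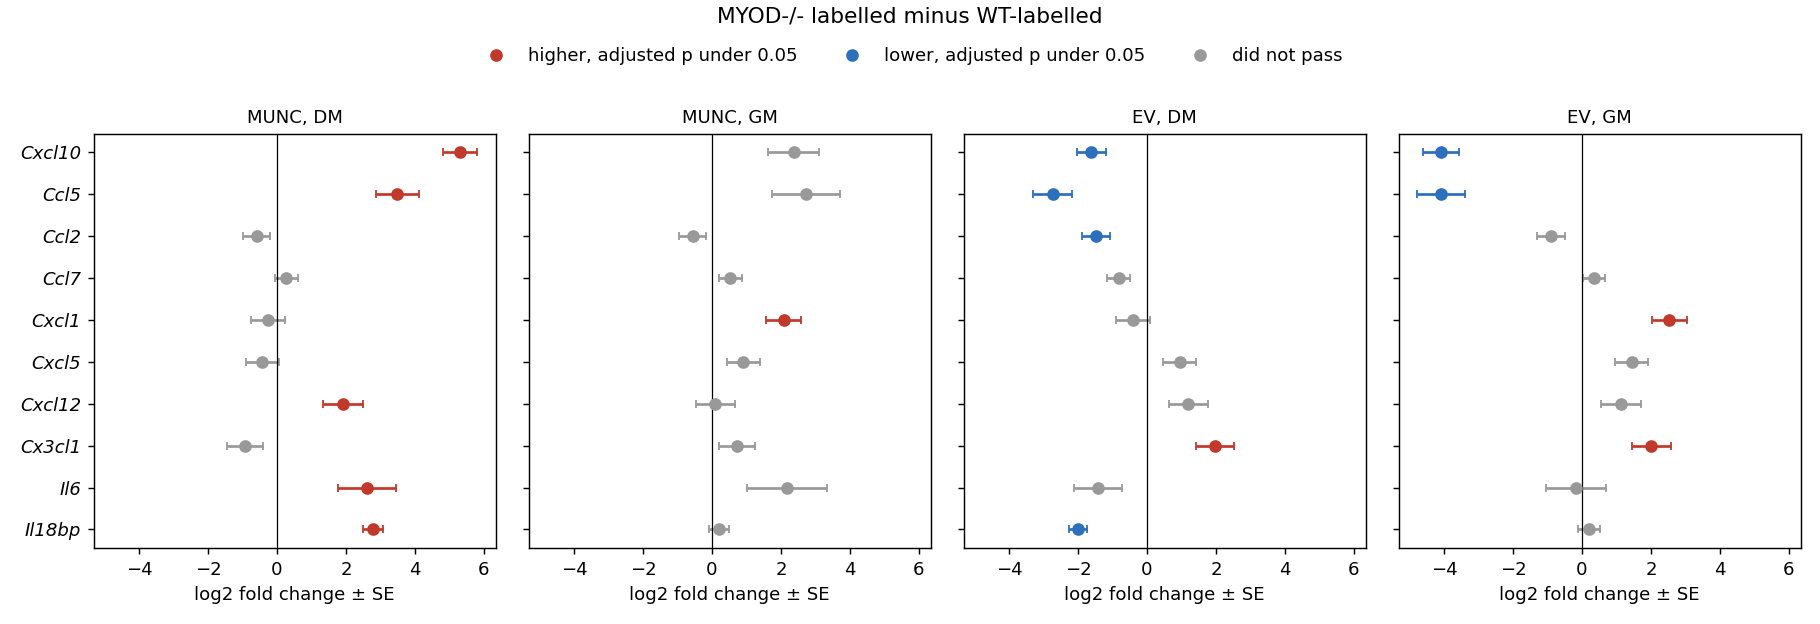
Log2 fold change of each gene, MYOD-/- labelled minus WT-labelled, with its SE, in MUNC DM, MUNC GM, EV DM and EV GM cells; coloured points passed the threshold of 0.05. Cxcl10 lies at 5.31 in MUNC DM and at -1.61 in EV DM, and Cxcl1 is above 0 in both GM panels.

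In MUNC DM cells Cxcl10 was 39.7-fold higher in the MYOD-/- label (5.31 ± 0.50, edgeR adjusted p = 3.22e-05), Ccl5 11.3-fold (3.49 ± 0.62, adjusted p = 0.00227) and Il18bp 6.91-fold (2.79 ± 0.29, adjusted p = 6.58e-05). Cxcl12 (1.91 ± 0.58, adjusted p = 0.0358) and Il6 (2.61 ± 0.83, adjusted p = 0.0415) were also higher. The Cxcl12 call was lost without any 1 of 6 libraries, the 2 of MYOD-/- EV DM, MYOD-/- MUNC DM and WT MUNC DM each (adjusted p of 0.0517 to 0.211), and in limma on log2(TPM + 1) (0.0569). The Il6 call was lost without any 1 of 7 libraries, both of MYOD-/- EV DM, WT MUNC DM and WT MUNC GM and replicate 2 of MYOD-/- MUNC DM (adjusted p of 0.0528 to 0.323), and in limma on log2(TPM + 1) (0.0631), and its value was 1.67 without MYOD-/- MUNC DM replicate 2. Without the same library the Cxcl10 value was 4.68. Of the 9 muscle markers 4 were higher and 0 lower in the MYOD-/- label in MUNC DM (median 1.92), among them Myh3 (3.81 ± 0.53, adjusted p = 0.000477), and of the 7 leukocyte markers 1 was higher and 0 lower, and their part was not tested. In MUNC GM cells Cxcl1 was higher (2.08 ± 0.50, adjusted p = 0.0226), a call lost without MYOD-/- MUNC GM replicate 2 (0.101) or either WT MUNC GM replicate (0.0625 and 0.168) and in a fit of the groups compared alone (0.107). Cxcl10 was 2.37 ± 0.73 there and missed the threshold (0.0647), while DESeq2 gave 0.00306 and edgeR with replicate number as a block 0.0287.

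In EV DM cells the 3 genes ran the other way: Cxcl10 was 3.06-fold lower in the MYOD-/- label (-1.61 ± 0.41, edgeR adjusted p = 0.0117), Ccl5 6.63-fold lower (-2.73 ± 0.57, adjusted p = 0.00459) and Il18bp 4.0-fold lower (-2.0 ± 0.27, adjusted p = 0.000364). Ccl2 was lower as well (-1.47 ± 0.40, adjusted p = 0.018) and Cx3cl1 higher (1.98 ± 0.55, adjusted p = 0.0186). Leaving out MYOD-/- EV DM replicate 1 ended the calls of Cxcl10 (0.0921), Ccl5 (0.0516), Ccl2 (0.131) and Cx3cl1 (0.0715). Leaving out WT EV DM replicate 2 also ended those of Cxcl10 (0.101), Ccl5 (0.056), Ccl2 (0.0984) and Cx3cl1 (0.122), and Cx3cl1 was lost without MYOD-/- EV DM replicate 2 (0.0617) or WT EV DM replicate 1 (0.0593). The Il18bp call was held in all 16. The Cxcl10 value was -2.23 without MYOD-/- EV DM replicate 2, and that of Ccl5 was -3.33 and -1.81 without WT EV DM replicate 1 and 2. In the same comparison 5 of the 9 muscle markers were higher and 0 lower in the MYOD-/- label (median 4.56), among them Myh3 (8.22 ± 0.67, adjusted p = 1.36e-05), Mymk (6.71 ± 0.69, adjusted p = 0.000102) and the differentiation factor Myog (4.60 ± 0.59, adjusted p = 0.000244). Of the 7 tested leukocyte markers 2 were lower and 0 higher, and the 12 on the list summed to 15.4 and 15.2 CPM in MYOD-/- EV DM, against 23.5 and 26.5 CPM in WT EV DM. The part of these markers in the differences was not tested.

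In EV GM cells Cxcl10 was 17.1-fold lower (-4.09 ± 0.51, edgeR adjusted p = 0.000545) and Ccl5 17.0-fold lower in the MYOD-/- label (-4.09 ± 0.70, adjusted p = 0.00375), and both calls held without any 1 library. In MYOD-/- EV GM these folds rest on 18 and 22 estimated counts of Cxcl10 and 25 and 14 of Ccl5. Of the 9 muscle markers 2 were higher, Mymk and Myod1, and 0 lower in the MYOD-/- label, and of the 7 leukocyte markers 1 was lower and 0 higher. Cxcl1 was 5.81-fold higher (2.54 ± 0.51, adjusted p = 0.00904) and Cx3cl1 4.02-fold higher (2.01 ± 0.56, adjusted p = 0.0433). The Cxcl1 call was lost without MYOD-/- EV GM replicate 2 (0.062, with a value of 1.43) or either WT EV GM replicate (0.0702 and 0.0732), and in a fit of the groups compared alone (0.112), and the value was 3.21 without MYOD-/- EV GM replicate 1. The Cx3cl1 call was lost in 13 of the 16 fits without 1 library, all but those without MYOD-/- EV GM replicate 1 or either MYOD-/- MUNC GM replicate, with adjusted p of 0.0506 to 0.288. Its value was 1.19 without MYOD-/- EV GM replicate 2. It also missed the threshold in limma on log2(TPM + 1) (0.11) and in a fit of the groups compared alone (0.152).

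Il18bp was also tested for a different response to differentiation by label. The DM change in MYOD-/- minus that in WT was 2.59 ± 0.41 in MUNC cells (edgeR adjusted p = 0.0121), where 1.38% of all genes passed (1.24% higher and 0.14% lower) and Il18bp was the 1 gene of the 10. It was -2.21 ± 0.42 in EV cells (adjusted p = 0.0224), where 2.58% passed (1.66% higher and 0.922% lower) and it was again the 1 gene. For the DM change in MUNC minus that in EV cells, 1 of the 10 passed in the WT label (3.33% of all genes, 1.24% higher and 2.09% lower), and 0 in the MYOD-/- label, where 0.0% passed in edgeR. In the MYOD-/- label 114 of the 14972 genes had an unadjusted p under 0.05, again below a share of 0.05, and DESeq2 and limma on log2(TPM + 1) called 0 and 1. The EV difference was lost without any 1 of 7 of the 8 EV libraries, all but WT EV GM replicate 2 (adjusted p of 0.0508 to 0.0936), and the MUNC difference without MYOD-/- MUNC DM replicate 2 (0.0554) or either WT MUNC DM replicate (0.0699 and 0.0659). In fits of the groups compared alone they reached 0.0716 and 0.0587. For Cxcl10 the EV difference was 2.48 ± 0.64 and did not pass (0.0706), while DESeq2 gave 0.005 and edgeR with replicate number as a block 0.0172.

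For the other members the nearest genes in pattern were Mrps18b (0.163), Lgals3 (0.169) and Tlcd3a (0.204) for Ccl2, on a range of 2.17 log2 units, and Pvr (0.164), Clcn3 (0.166) and Sars (0.169) for Ccl7, on a range of 1.48. For Cxcl1 they included Blnk (0.517) and Gm3776 (0.518), and for Cxcl5 Celf4 (0.344), Rnf223 (0.391) and Degs2 (0.427). For Cxcl12 they were Baalc (0.33), Arl15 (0.338) and 5031439G07Rik (0.347), for Cx3cl1 Stard10 (0.281), Cdh13 (0.329) and Pgap6 (0.355), and for Il6 they included Rgcc (0.326) and H2-T-ps (0.423).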

How the data were processed

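Per the labels' protocols, poly(A) RNA of 16 C2C12 libraries was sequenced in pairs of reads from NEBNext Ultra Directional libraries. The submitters' processing notes name bcl2fastq, kallisto and mm10, without versions or a strand setting. The authors deposited, per the file headers, estimated counts and TPM for each of 35818 transcripts. The values were summed by symbol (35487 transcripts named by RefSeq, 193 by GENCODE, 138 without a symbol left out with 0.28% to 0.941% of counts), and estimated counts were rounded. In R 4.3.3, edgeR 4.0.16 (TMM scaling, filterByExpr) fitted 1 mean per group to all 16 libraries, with 8 residual degrees of freedom. Its quasi-likelihood test was adjusted by Benjamini-Hochberg over 14972 genes. The SE printed with a value is the absolute log2 fold change divided by the square root of the test's F statistic. It was not fitted separately. The code was tested on simulated data. The members and lists were chosen with earlier results of these data known. The naming rule took all members, up to 4 genes of each list per comparison with the largest change among those past the threshold with a mean of at least 1 CPM, and the 3 nearest patterns. Some genes that this rule names are not reported here. Alternatives were DESeq2 1.42.0, its size factors in edgeR, 2 filters, limma 3.58.1 on log2(TPM + 1) and log2(TPM + 0.1), a replicate block, the groups compared alone, and each library left out. Protein sequences were not used here. Counts limit precision for Il6, for Cxcl10 and Ccl5 in WT MUNC cells and in MYOD-/- GM cells, and for Il18bp in all GM cells and in WT MUNC DM cells.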

Additional observations from a re-analysis of the deposited data

Results flagged for a closer look

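These results are named because the effect of 1 factor differed between groups in a test of the difference itself, with edgeR's quasi-likelihood test adjusted over 14972 genes. The MUNC difference in MYOD-/- labelled cells minus that in WT-labelled cells was 6.92 for Cxcl10, 6.22 for Ccl5, 4.79 for Il18bp, 4.03 for Il6 and -2.90 for Cx3cl1 in DM, on the log2 scale. In GM it was 6.46 for Cxcl10 and 6.82 for Ccl5. The DM change in MUNC minus that in EV cells of the WT label was -5.47 for Il18bp. The DM change of Il18bp in the MYOD-/- label minus that in the WT label was 2.59 in MUNC cells and -2.21 in EV cells. The MUNC differences between labels compare 4 lines and the 3 Il18bp differences in the DM change compare 2 lines each. Label or vector and line cannot be told apart in any of them, and Myod1 RNA went against the genotype labels. The calls of Il6, of Cx3cl1 and of both Il18bp differences between labels in the DM change did not hold without single libraries. The Ccl5 difference in GM did not pass in a fit of the groups compared alone. MUNC reached at most 750 TPM in the MYOD-/- label, against a highest value of 15600 TPM in the WT label.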

How the results depend on the processing

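No called member value reversed its direction under any alternative. Of 40 values each, 24 were called for differentiation, 15 for the genotype label and 9 for MUNC, and 10 of 60 interactions. The other settings gave 19 to 25, 12 to 19, 8 to 10 and 8 to 14. With 1 library left out the ranges were 20 to 25, 9 to 16, 7 to 10 and 7 to 11, the 9 for the genotype label coming without MYOD-/- EV DM replicate 1. In all 16 such fits 13, 6, 7 and 6 of the calls were held. Replicate numbers were not taken to pair the libraries in the main fit, since the labels do not say what a number shares. The correlation of same-numbered deviations was above 0.1 in 23 of 28 pairs of groups (lowest -0.013, median 0.255, highest 0.712). Same-numbered libraries thus tended to deviate alike, which the main fit does not model. The fibroblast-like sum was higher in replicate 1 in all 8 groups, and Ccl2 in replicate 2 in all 4 GM groups. A replicate block gave 25, 19, 10 and 12 member calls. It added 8: Cxcl12 on differentiation in MYOD-/- EV (adjusted p = 0.0228); for the label, Ccl2 in EV GM (0.0221), Ccl7 (0.0287) and Cxcl12 (0.0314) in EV DM and Cxcl10 in MUNC GM (0.0287); Ccl2 for MUNC in WT-labelled DM (0.00573); and the difference between labels in the DM change of EV cells for Cxcl10 (0.0172) and Cxcl1 (0.0382). A filter of 5 CPM removed Il6. On log2(TPM + 0.1) limma also lost Ccl2 (0.0515 and 0.0611) and Ccl7 (0.118 and 0.0682) on differentiation in MYOD-/- MUNC and MYOD-/- EV, Cxcl5 in MYOD-/- MUNC (0.0549), Cx3cl1 for the label in EV GM (0.0577) and Cxcl12 in MUNC DM (0.0549).

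Counts over all genes moved by over 1.5 times in these cases. For the label, EV GM cells had 1550 calls in the full fit, 2405 with the block, 324 in a fit of the groups compared alone and at least 700 without 1 library; MUNC GM cells had 1496, 2379, 70 and 607. EV DM cells had 4699 and at least 2606 without 1 library, and MUNC DM cells 3400 and 1593. For MUNC in the WT label, GM had 2060, 818 alone and at least 963 without 1 library, and DM 4980 and 3140. Differentiation in MYOD-/- MUNC had 6707 and 4227 alone, and in MYOD-/- EV 6470 and at least 4290 without 1 library. Differences between labels in the DM change had 387 calls in EV cells, against 997 with DESeq2, 1046 with limma on log2(TPM + 1), 757 on log2(TPM + 0.1), 898 with the block, 160 alone and at least 57 without 1 library; in MUNC cells these were 206, 502, 563, 379, 388, 81 and 59. With DESeq2 51.0% and 74.9% of these calls were higher, against 64.3% and 89.8% in edgeR. The difference between vectors in the WT label had 499 calls, against 1155 with DESeq2, 944 with limma on log2(TPM + 1), 1033 with the block and at least 198 without 1 library. The MUNC difference between labels had 738 in GM, 1263 with DESeq2, 1168 with the block, 225 alone and at least 397 without 1 library, and 2708 in DM and at least 1514 without 1 library. The cause of these shifts was not tested.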
